A study of Homo sapiens with 6 samples.

Results

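Interferons and the interferon regulatory factors (IRFs) that switch on and read out their signalling were followed in Cal27 cells, a human squamous carcinoma line from the tongue. The 9 genes were chosen by symbol: 4 interferon ligands (IFNB1, IFNL1, IFNE and IFNK) and 5 IRF transcription factors (IRF1, IRF2, IRF3, IRF5 and IRF7). All 9 of 9 were found by Ensembl identifier among the 57820 identifiers of the count table. Total RNA was sequenced from cells given a lentivirus with the cornulin gene (CRNN), from cells given a lentivirus with GFP as the control insert, and from untreated wild-type cells, with 2 biological replicates in each of the 3 groups. Per the labels, both transduced groups received polybrene at 8 µg/ml and were harvested at 48 h. The labels give neither for the untreated cells, so virus, polybrene and culture time cannot be told apart in comparisons with them. They also do not say whether transduced cells were selected or cloned, or how the replicate cultures were separated, so p-values measure the spread between these libraries.

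In epithelial cells, sensors of foreign nucleic acid activate kinases that phosphorylate IRF3 and IRF7, which then enter the nucleus and switch on type I and type III interferon genes. Secreted interferon acts through JAK kinases and a transcription factor complex that contains IRF9 to raise a wide set of stimulated genes, IRF7 among them. IRF3 is made constantly and controlled at the protein level, while IRF1 is an activator that interferon induces, and IRF2 binds the same DNA sites and can oppose IRF1.

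Library totals ran between 11817105 counts (GFP replicate 2) and 28041227 counts (untreated replicate 1). Levels are in CPM, which are counts scaled by library size and TMM factors (edgeR's correction for composition), and 3 counts, taken here as the floor, correspond to between 0.115 and 0.239 CPM. The targeted gene followed the labels, with CRNN at 964 and 1028 CPM in the CRNN cells, 3.06 and 2.55 CPM in the GFP cells, and 3.51 and 2.08 CPM in untreated cells (log2 fold change over GFP 8.46, SE 0.43, adjusted p = 0.000224 by edgeR's quasi-likelihood test with Benjamini-Hochberg adjustment, which is used throughout). The squamous keratin KRT5 had between 1902 and 4270.2 CPM, whereas 4 of 15 immune cell markers passed the filter on low counts and the summed level of the 15 was between 7.91 and 12.7 CPM, with the pan-leukocyte gene PTPRC between 0.223 and 0.878 CPM and CLEC4C at 0 counts in all 6 libraries. The largest part of that sum was CD14, a monocyte marker, at 8.34 and 7.22 CPM in CRNN, 4.41 and 4.23 in GFP, with 5.27 and 5.52 in untreated cells. In the GFP libraries the 15 summed to 9.35 and 9.34 CPM. The log2 fold change of CD14 for CRNN over GFP was 0.85 (SE 0.30, unadjusted p = 0.0207, adjusted p = 0.999). The other 3 tested markers were lower in CRNN, at -1.38 for PTPRC, -0.45 for CSF1R and -0.38 for LYZ, and the median of the 4 was -0.41. The part of CD14 in the results was not tested. Untreated replicate 1 stood apart on principal component 1 (51% of variance), at 67.4 against values between -21.2 and -8.39 for the other 5 libraries. Comparisons with untreated cells are therefore also given with 1 of the 2 untreated libraries left out.

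The ligands were barely counted in all 3 groups, with at most 21 counts of any of them in a library. IFNB1 encodes interferon beta, the first type I interferon that most infected cells make (ENSG00000171855.5; GRCh38 chromosome 9, 21077104 to 21077942, a gene of 1 exon). No count was found in either CRNN library or either GFP library, and untreated replicates 1 and 2 had 4 and 0 counts. In bulk RNA, fewer cells with a transcript and less RNA per cell cannot be told apart, here and for every gene that follows. In the 5 libraries at 0, the limit that 3 counts set lay between 0.12 and 0.239 CPM, and the 4 counts correspond to 0.153 CPM with an exact 95% Poisson interval of 0.0416 to 0.391. The intervals and the floor cover counting error only. The level in untreated replicate 1 therefore overlapped what the other libraries could have held without showing a count.

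IFNL1 encodes interferon lambda 1, a type III interferon that acts mainly on epithelia (ENSG00000182393.2; chromosome 19, 39296407 to 39298673, 5 exons). It had 5 and 9 counts in CRNN (0.227 and 0.401 CPM), 3 and 1 in GFP (0.156 and 0.0798 CPM), and 13 and 2 in untreated cells (0.497 and 0.0801 CPM). Both CRNN libraries lay above both GFP libraries, as they did for 19.4% of tested genes. The exact 95% Poisson intervals overlapped, at 0.0736 to 0.529 CPM for CRNN replicate 1 and 0.0321 to 0.455 CPM for GFP replicate 1. The untreated pair spanned all the others except GFP replicate 2. It was too low for the filter. A fit without the filter put it at a log2 fold change of 1.34 (SE 1.0, adjusted p = 0.952) for CRNN over GFP and 0.10 (SE 0.83, adjusted p = 1.0) for CRNN over untreated cells (edgeR, n = 2 per group). Its relatives IFNL2 and IFNL3, near-identical to each other, had 6 and 7 counts over all 6 libraries, and 5 of the 7 IFNL3 counts were in untreated replicate 1. Reads that fit both cannot be assigned to 1 gene, so these counts may be too low.

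IFNE encodes interferon epsilon, a type I interferon known for constant expression in the epithelium of the female reproductive tract (ENSG00000184995.6; chromosome 9, 21480839 to 21482313, 1 exon). It was the most counted of the ligands and the 1 ligand that passed the filter, with 63 counts in all. It had 15 and 5 counts in CRNN (0.68 and 0.223 CPM), 21 and 9 in GFP (1.09 and 0.718 CPM), and 8 and 5 in untreated cells (0.306 and 0.20 CPM). Both GFP libraries were the highest of the 6, above both of each other group. The order of GFP replicate 2 and CRNN replicate 1 is within counting error. Their exact 95% Poisson intervals were 0.328 to 1.36 and 0.381 to 1.12 CPM. The fitted log2 fold change was 1.83 (SE 0.69) for GFP over untreated, with an unadjusted p of 0.0261 and an adjusted p of 0.711 by edgeR, and it was -1.02 (SE 0.66, adjusted p = 0.999) for CRNN over GFP. For CRNN over untreated it was 0.82 (SE 0.71, adjusted p = 0.989), and -0.18 without CRNN replicate 1, 1.15 without untreated replicate 1 and 0.56 without untreated replicate 2. GFP over untreated was 2.17 without untreated replicate 1 and 1.58 without untreated replicate 2. By Pearson r of log2 CPM over the 6 libraries, the genes most like IFNE among 11729 were PTPN23 (r = 0.996), IQSEC1, WWC3, MUC16 and KMT2D. The ranking describes 6 libraries with between 5 and 21 IFNE counts in each. It compares the shape and not the size of a change. WWC3 lay between 14.8 and 19.0 CPM, while IFNE varied 5.45-fold. IFNE lies inside the span of MIR31HG, a long noncoding RNA gene on the same strand, with 0 bases of shared exon. MIR31HG had 6.8 and 3.52 CPM in CRNN, 10.5 and 5.59 CPM in GFP, with 13.1 and 4.84 CPM in untreated cells, so that its highest library was untreated replicate 1 and not a GFP library. Whether unspliced MIR31HG RNA adds to the IFNE counts was not tested.

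IFNK encodes interferon kappa, a type I interferon of keratinocytes (ENSG00000147896.3; chromosome 9, 27524290 to 27526498, 2 exons). It had 2 and 1 counts in CRNN, 4 and 2 in GFP, and 1 and 5 in untreated replicates 1 and 2, its highest level being 0.208 CPM in GFP replicate 1. In CPM both CRNN libraries lay below both GFP libraries, as they did for 18.7% of tested genes. The untreated pair, at 0.0382 and 0.20 CPM, spanned all but GFP replicate 1. CRNN replicate 1 and GFP replicate 2 had the same 2 counts. Their exact 95% Poisson intervals were 0.011 to 0.327 and 0.0193 to 0.577 CPM, so the order is within counting error. It was too low for the filter, and without it the log2 fold change for CRNN over GFP was -1.36 (SE 1.3, adjusted p = 0.952; edgeR). IFNK lies in the span of MOB3B on the opposite strand, with 0 bases of shared exon. MOB3B had between 4.51 and 7.13 CPM, and the strand setting of the counting is not given in the sources used here.

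**Figure D1:**
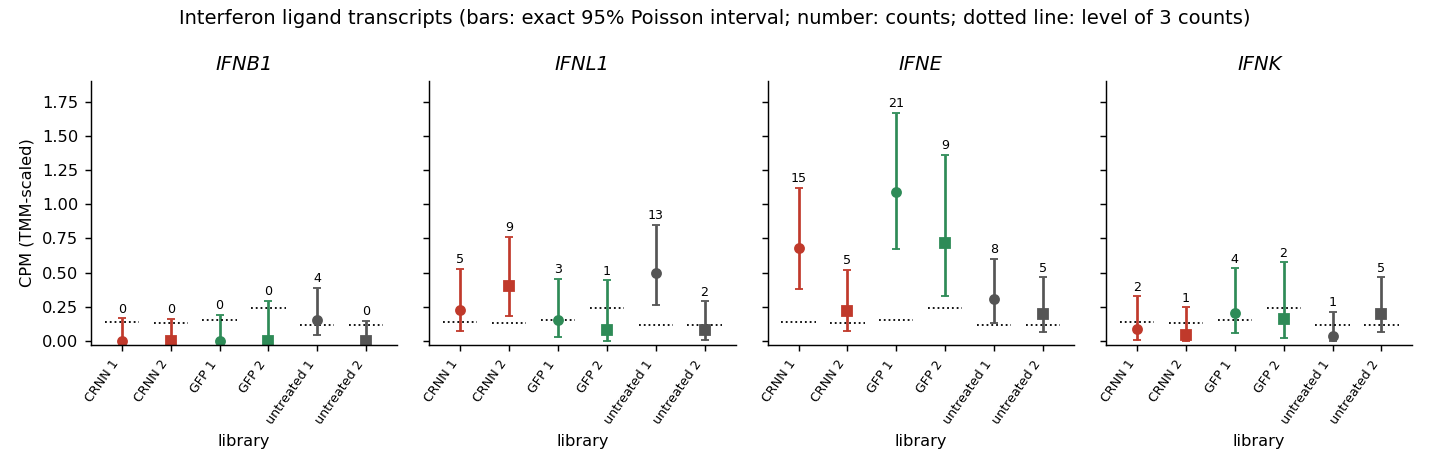
Level of the 4 interferon ligands in each library, in CPM, with exact 95% Poisson intervals; the number is the count and the dotted line the level of 3 counts. IFNB1 has counts in untreated replicate 1 alone, and IFNE is highest in the 2 GFP libraries, at 1.09 and 0.718 CPM.

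The 4 ligands together had 22 and 15 counts in CRNN, 28 and 12 in GFP, with 26 and 12 in untreated cells. Of the 18 other interferon genes listed for comparison (13 alpha interferons, IFNW1, IFNG, IFNL2, IFNL3 and IFNL4), 13 had 0 counts in every library, and the 18 had 19 counts in all. IFNG, the type II ligand that induces IRF1, had 0 counts in all 6 libraries. The alpha interferons had 5 counts between them, in IFNA1 and IFNA13, a near-identical pair. As for IFNL2 and IFNL3, reads shared between genes of like sequence may be missing from these counts. By library, the 18 summed to 4 and 2 counts (CRNN), 2 and 2 counts (GFP), and 7 and 2 counts (untreated). No ligand passed a test between groups, with or without the filter, and at these counts a difference was not detectable for IFNB1.

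The proximal promoters of IFNB1, IFNL1 and IRF1 are shown because these genes are textbook targets of IRF, STAT and NF-kB factors. They are the 250 bases before the start (RefSeq, GRCh38.p14), read 5′ to 3′ on the gene's strand. IFNB1 is at chr9:21077943-21078192 (minus strand), IFNL1 at chr19:39296157-39296406 (plus strand) and IRF1 at chr5:132490774-132491023 (minus strand). Capitals mark matches on either strand to an IRF core (AANNGAAA), a STAT site (GAS, TTCNNNGAA) or an NF-kB site (GGGANNTTC). The letters were chosen after the sequences were seen, and 3 other forms of the NF-kB letters and 1 of the IRF core had been tried.
IFNB1: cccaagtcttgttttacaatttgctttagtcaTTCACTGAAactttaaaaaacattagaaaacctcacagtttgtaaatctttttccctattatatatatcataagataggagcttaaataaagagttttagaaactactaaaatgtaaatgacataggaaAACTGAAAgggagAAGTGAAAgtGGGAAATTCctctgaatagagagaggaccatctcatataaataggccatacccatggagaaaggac
IFNL1: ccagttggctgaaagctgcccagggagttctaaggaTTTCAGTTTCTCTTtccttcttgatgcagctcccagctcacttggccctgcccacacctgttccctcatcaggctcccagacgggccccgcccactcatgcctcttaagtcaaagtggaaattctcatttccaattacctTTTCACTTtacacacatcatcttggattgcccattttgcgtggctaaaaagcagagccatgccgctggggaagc
IRF1: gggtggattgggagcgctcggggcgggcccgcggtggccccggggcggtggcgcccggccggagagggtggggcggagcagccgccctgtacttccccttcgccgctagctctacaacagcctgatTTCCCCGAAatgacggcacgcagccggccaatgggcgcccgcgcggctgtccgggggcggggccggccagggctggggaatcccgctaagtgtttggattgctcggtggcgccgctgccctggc
IFNB1 holds 2 IRF cores, at 89 to 82 and 76 to 69 bases before the start, an NF-kB match at 66 to 58, and a GAS match at 218 to 210. IFNL1 holds 3 IRF cores on the opposite strand, of which those at 214 to 207 and 208 to 201 overlap, and the other is at 74 to 67. IRF1 holds a GAS match at 124 to 116 and no match to the letters used for the other 2 motifs. NF-kB sites also take other forms, and the stretch ggggaatccc in the IRF1 sequence is one that these letters cannot match. Of 35116 promoters of this length, 20.3% held the IRF core, 6.57% the GAS letters and 3.52% the NF-kB letters. A match is a description of letters, not of binding. Promoters were found for 6 of the 9 genes. The IFNE promoter held none of the 3 motifs, and that of IFNK held an IRF core at 107 to 100 and a GAS match at 192 to 184. IRF5 had 4 promoters, of which 1 held an IRF core on the opposite strand, at 33 to 26 bases before its start.

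The IRF transcripts were well counted in every library, and their levels fell into 3 patterns. IRF1 and IRF2 were highest in the CRNN libraries and lowest in untreated replicate 1. IRF7 was high in the CRNN libraries and in untreated replicate 1. IRF3 and IRF5 varied least, 1.53-fold and 1.48-fold from the lowest to the highest library. No IRF passed the test in any comparison. For CRNN against GFP 0 of the 6 tested members passed, against 3 of 16396 tested genes (0.0183%). For CRNN against untreated 0 of 6 passed, against 1 gene (0.00610%), and for GFP against untreated 0 of 6, against 0 genes (0.00%, edgeR). In GFP against untreated, 29 genes passed the adjusted threshold by DESeq2 and 0 by limma-voom. By edgeR, 1137 genes had an unadjusted p under 0.05 there. DESeq2 and limma-voom passed no member in any of the 3 comparisons. The median of the 5 IRF log2 fold changes was 0.60 for CRNN over GFP, 0.54 for CRNN over untreated and 0.12 for GFP over untreated, beside -0.0017, -0.0091 and -0.013 for all tested genes. For CRNN over untreated it was 0.27 without untreated replicate 1 and 0.15 without untreated replicate 2, and for GFP over untreated it was 0.090 and 0.098. These comparisons share libraries. At an unadjusted p under 0.05, 1 of 6 members was past the threshold in each comparison: IRF7 for CRNN against GFP (4.39% of genes), IRF2 for CRNN against untreated (4.48%) and IFNE for GFP against untreated (6.93%, and 4.03% in the higher direction). The libraries did not overlap for 4 of 6 members in CRNN against GFP, where IRF1, IRF2 and IRF7 were higher (19.4% of all tested genes) and IFNE lower (18.7%), beside 38.1% of genes in either direction. They did not overlap for 3 of 6 in CRNN against untreated (IRF1, IRF2 and IRF5, all higher, 18.7%; 37.1% in either direction). In GFP against untreated, 1 of 6 did not overlap (IFNE, higher, 16.2%; 31.6% in either direction).

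**Figure D2:**
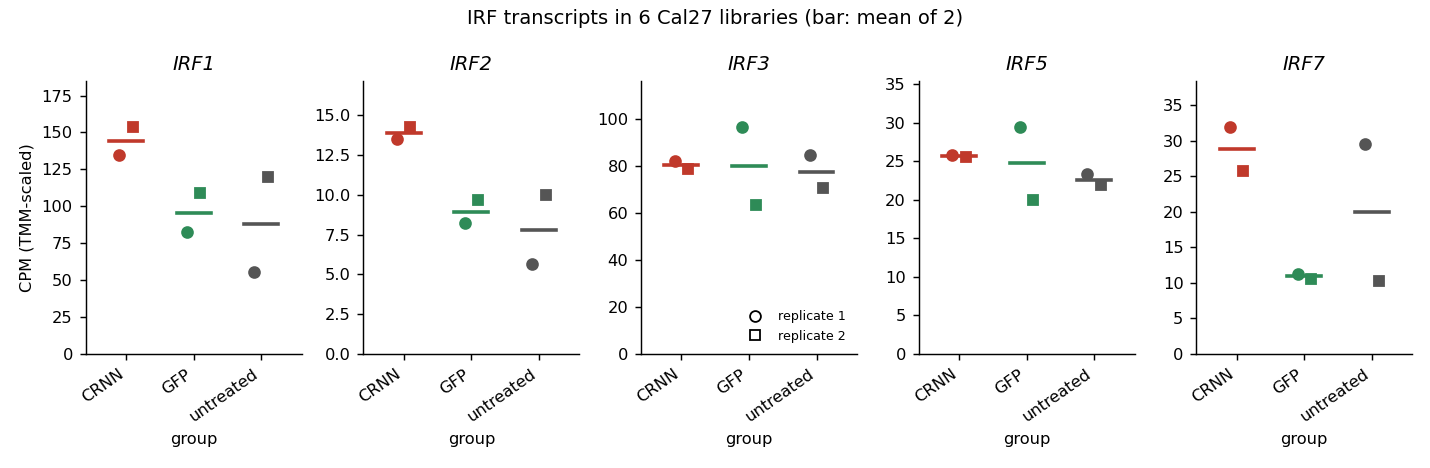
Level of the 5 IRF transcripts in CPM (each axis starts at 0), with circles for replicate 1, squares for replicate 2 and a bar at the mean of 2. Both CRNN libraries lie above the other 4 for IRF1 and IRF2, while IRF7 is split within the untreated pair at 29.6 and 10.2 CPM.

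IRF1 (ENSG00000125347.9; chromosome 5, canonical transcript 132481609 to 132490773, minus strand) had 2983 and 3453 counts, or 135 and 154 CPM, in CRNN. GFP cells stood at 82.4 and 109 CPM, and untreated replicates 1 and 2 at 55.7 and 119.8 CPM. Both CRNN libraries were above all 4 others, and untreated replicate 1 was the lowest. The mean was 145 ± 13.2 CPM in CRNN, 95.6 ± 18.6 in GFP and 87.8 ± 45.3 in untreated cells (SD, n = 2 each). IRF1 had a log2 fold change of 0.60 (SE 0.37, adjusted p = 0.999) for CRNN over GFP and 0.72 (SE 0.37, adjusted p = 0.989) for CRNN over untreated, and 0.12 (SE 0.37, adjusted p = 0.942) for GFP over untreated (edgeR). The value against untreated cells was 0.27 without untreated replicate 1 and 1.39 without untreated replicate 2 (adjusted p = 0.0532), so its size rested on untreated replicate 1. The antisense gene IRF1-AS1 shares 580 exon bases with IRF1. It had 5.3 and 5.62 CPM in CRNN, 3.48 and 5.59 in GFP, with 4.2 and 5.12 in untreated cells, far below IRF1 itself.

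IRF2 (ENSG00000168310.6; chromosome 4, 184387729 to 184474550, minus strand) had 298 and 321 counts, or 13.5 and 14.3 CPM, in CRNN. It had 8.21 and 9.66 CPM in GFP and 5.65 and 9.97 CPM in untreated cells. As for IRF1, both CRNN libraries were above the other 4, which was so for 1167 of 16396 tested genes (7.12%). The mean was 13.9 ± 0.566 CPM in CRNN, 8.93 ± 1.03 in GFP and 7.81 ± 3.05 in untreated cells (SD, n = 2 each). The log2 fold change was 0.64 (SE 0.33, adjusted p = 0.999) for CRNN over GFP and 0.83 (SE 0.33, adjusted p = 0.989) for CRNN over untreated (edgeR). The value against untreated cells had an unadjusted p of 0.0343, and 250 genes (1.52%) were higher and 485 (2.96%) lower with an unadjusted p under 0.05. Without untreated replicate 2 it passed, at 1.31 (adjusted p = 0.0477), where 825 genes passed (5.03%), and without untreated replicate 1 it was 0.48 (adjusted p = 1.0).

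IRF1 and IRF2 kept nearly the same proportion in all 6 libraries. The ratio of IRF1 to IRF2 counts, which no scaling touches, was 10.01 and 10.8 in CRNN, 10.04 and 11.3 in GFP, with 9.85 and 12 in untreated cells. Its highest value was 1.22 times its lowest, while each gene alone varied 2.76-fold (IRF1) and 2.53-fold (IRF2) over the libraries. As a description over 6 libraries, their log2 CPM had r = 0.98, and r = 0.95 over 5 without untreated replicate 1. By contrast, the IRF1 to IRF3 ratio varied 2.98-fold, with 1.65 and 1.96 in CRNN, 0.851 and 1.72 in GFP, with 0.657 and 1.7 in untreated cells. The genes most like IRF1 among 11729 were TCEAL1 (r = 0.994), EAPP, CPOX, HS1BP3 and HES1, and those most like IRF2 were PGBD1 (r = 0.996), SMPDL3A, CHN1, an unnamed identifier and HES1. None of these 9 was on the lists of interferon, NF-kB or epithelial genes. HES1, a Notch target and transcriptional repressor, was on both rankings, at 46.9 and 54.1 CPM in CRNN, 29.2 and 40.3 in GFP, with 19.4 and 37.8 in untreated cells.

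IRF7 (ENSG00000185507.15; chromosome 11, 612555 to 615950, minus strand), the amplifier of type I interferon production, had 707 and 578 counts, or 32.0 and 25.8 CPM, in CRNN. It had 11.3 and 10.5 CPM in GFP, with 29.6 and 10.2 CPM in untreated replicates 1 and 2. The libraries fell into 3 high (both CRNN and untreated replicate 1) and 3 low, with no value between 11.3 and 25.8 CPM. The log2 fold change for CRNN over GFP was 1.41 (SE 0.45), a 2.65-fold higher level, with an unadjusted p of 0.0127 and an adjusted p of 0.999 (edgeR). At that unadjusted threshold of 0.05, 1 of 6 members was higher and 0 lower in CRNN, beside 244 genes (1.49%) higher and 475 (2.90%) lower. The value lay between 1.24 and 1.55 in the fits that left out a library, and the smallest adjusted p under any alternative was 0.187 (without untreated replicate 1), so IRF7 passed under none of them. CRNN over untreated was 0.54 (SE 0.44, adjusted p = 0.989), 1.5 without untreated replicate 1 and -0.024 without untreated replicate 2. GFP over untreated was -0.87 (SE 0.45, adjusted p = 0.713), 0.090 without untreated replicate 1 and -1.43 without untreated replicate 2, where it passed (adjusted p = 0.0257) along with 823 genes in all (5.02%), against 0 with all 6 libraries. Against untreated cells, the value for IRF7 depended on which untreated library was used.

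IRF7 was high in the libraries where interferon-stimulated genes were high, whereas IRF1 was at its lowest in untreated replicate 1, which is among them. Averaged over 36 stimulated genes, each centred on its own mean log2 CPM, the level was 0.84 and 0.96 in CRNN, -1.65 and -0.57 in GFP, and 0.85 and -0.43 in untreated replicates 1 and 2. The 3 libraries with high IRF7 are thus the 3 with high stimulated genes. Among the 3 low libraries IRF7 did not follow the order of that list, since GFP replicate 1 had the lowest list level and IRF7 at 11.3 CPM, slightly above the 10.5 and 10.2 CPM of the other 2. The median r of IRF7 with the 36 genes was 0.86, against 0.18 for IRF1, 0.22 for IRF2, -0.04 for IRF3 and -0.07 for IRF5. This is a description over 6 libraries that for IRF7 reflects the split into 3 and 3. Over all genes compared, the median r was highest for IRF7, at 0.09, and lowest for IRF3 and IRF5, at -0.04 for each. The genes most like IRF7 were SHFL (r = 0.985), EPHX4, USP18, PARP3 and TRIM14, of which USP18, a brake on the type I interferon receptor, was on the list of JAK-STAT genes. USP18 had 22.6 and 22.4 CPM in CRNN, 8.05 and 8.46 in GFP, with 23.1 and 9.89 in untreated cells, and SHFL, an interferon-induced antiviral factor, stood at 16 and 16 CPM in CRNN, 8.93 and 9.34 CPM in GFP, with 16.1 and 9.45 CPM in untreated cells. The ratio of IRF7 to IRF3 counts was 0.39 and 0.328 in CRNN, 0.116 and 0.166 in GFP, with 0.349 and 0.145 in untreated cells.

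**Figure D3:**
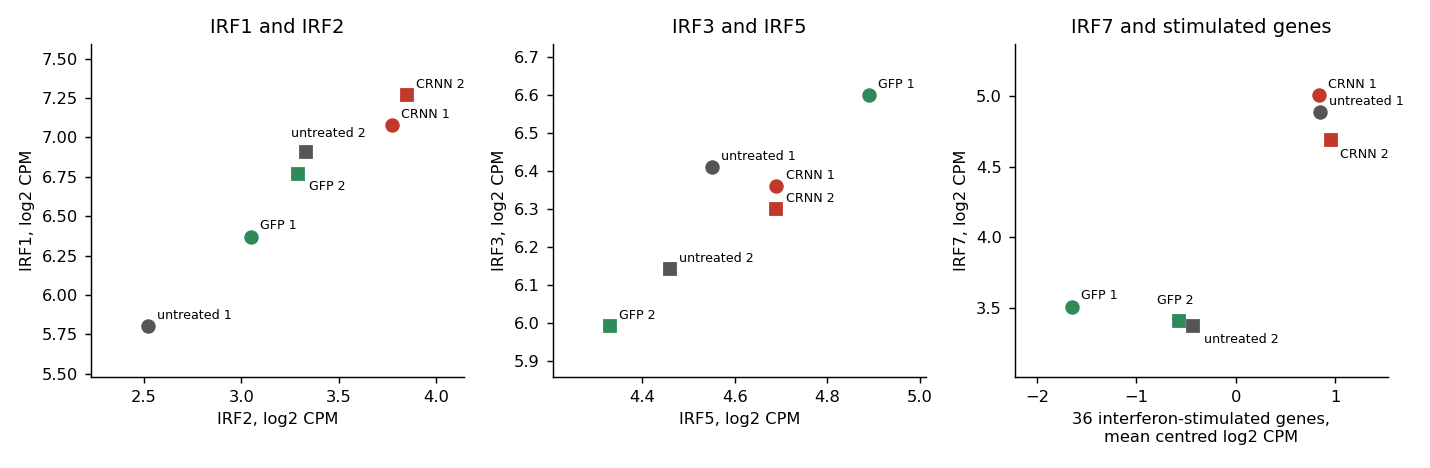
Each point is a library, named beside it, on log2 CPM axes; the x axis of the right panel is the mean centred log2 CPM of 36 interferon-stimulated genes. IRF1 and IRF2 lie close to a line, IRF3 and IRF5 span 0.61 and 0.56 log2 units, and IRF7 splits the libraries into 3 high and 3 low.

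IRF3 (ENSG00000126456.11; chromosome 19, 49659572 to 49665857, minus strand), the constant sensor-driven factor, had 82.1 and 78.6 CPM in CRNN, 96.9 and 63.4 in GFP, with 84.7 and 70.6 in untreated cells. The 2 GFP libraries were the highest and the lowest of the 6, so the groups overlapped. The log2 fold change was 0.0041 (SE 0.29, adjusted p = 0.999) for CRNN over GFP, 0.050 (SE 0.29, adjusted p = 0.997) for CRNN over untreated and 0.046 (SE 0.29, adjusted p = 0.976) for GFP over untreated (edgeR). The sign of the values for CRNN over GFP and GFP over untreated turned under some other scalings, filters or fits. IRF3 shares 227 exon bases with BCL2L12 on the opposite strand, which was at 24.3 and 27.0 CPM in CRNN, 30.6 and 19.4 in GFP, with 21.5 and 25.7 in untreated cells. GFP replicates 1 and 2 were the highest and lowest libraries for BCL2L12 too.

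IRF5 (ENSG00000128604.14; chromosome 7, 128937927 to 128950038, plus strand), a factor of Toll-like receptor signalling best known in myeloid cells, had 25.8 and 25.6 CPM in CRNN, 29.5 and 19.95 in GFP, with 23.3 and 21.9 in untreated cells. As for IRF3, the highest and the lowest library were the 2 GFP replicates. Its log2 fold change was 0.054 (SE 0.28, adjusted p = 0.999) for CRNN over GFP, 0.18 (SE 0.28, adjusted p = 0.989) for CRNN over untreated and 0.13 (SE 0.28, adjusted p = 0.913) for GFP over untreated (edgeR). The ratio of IRF5 to IRF3 counts stayed between 0.275 and 0.326 in all 6 libraries, and their log2 CPM had r = 0.92 over 6 and 0.99 over 5 libraries without untreated replicate 1. With a correction for GC content and length, added after the data were seen, CRNN over GFP was 0.060 for IRF3, 0.12 for IRF5 and 1.5 for IRF7 (adjusted p = 0.914).

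**Figure D4:**
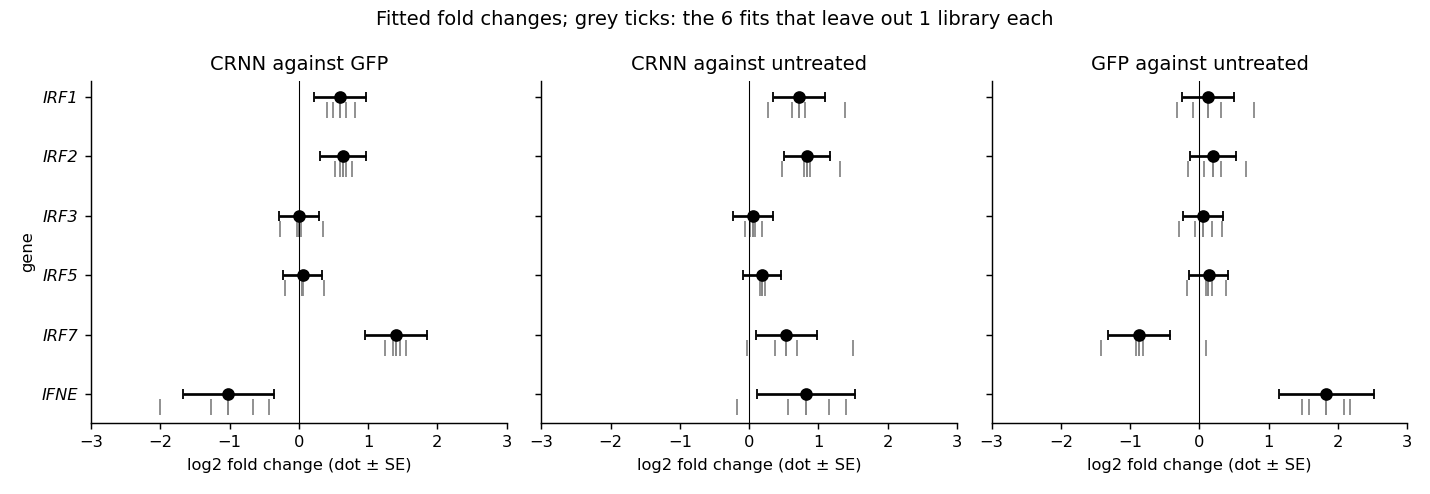
Log2 fold change with its SE (black) for the 5 IRFs and IFNE in the 3 comparisons, and the 6 values with a library left out (grey ticks). For IRF7 the ticks lie between 1.24 and 1.55 in CRNN against GFP, and between -0.024 and 1.5 in CRNN against untreated.

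Between genes, levels were compared per kilobase of merged exons, with the length of the canonical transcript as an alternative chosen later. IRF3 was the most abundant of the 5, at 21.2 ± 0.65 CPM per kilobase in CRNN, 21.1 ± 6.24 in GFP and 20.5 ± 2.64 in untreated cells (SD, n = 2 each). IRF1 had 11.8 ± 1.08 in CRNN, 7.79 ± 1.52 in GFP and 7.15 ± 3.7 in untreated cells. IRF7 had 11.1 ± 1.7 in CRNN, 4.17 ± 0.20 in GFP and 7.63 ± 5.24 in untreated cells, so that on this length IRF1 and IRF7 did not differ beyond their spread in CRNN and untreated cells. By canonical transcript they did in CRNN cells, at 40.7 ± 3.72 for IRF1 and 15.0 ± 2.31 for IRF7. IRF5 had 3.62 ± 0.016 in CRNN, 3.48 ± 0.95 in GFP and 3.19 ± 0.14 in untreated cells, and in GFP cells IRF5 and IRF7 lay within their spread. IRF2 was lowest, with 2.07 ± 0.084 in CRNN, 1.33 ± 0.15 in GFP and 1.16 ± 0.45 in untreated cells. By canonical transcript the means over the libraries kept this order, at 49.8 for IRF3, 30.8 for IRF1, 10.4 for IRF7, 8.4 for IRF5 and 4.53 for IRF2, but in the GFP cells IRF5 (8.53 ± 2.33) was then above IRF7 (5.67 ± 0.27). The ligands lay below all of the IRFs on the merged-exon scale, at means over the 6 libraries of 0.364 for IFNE, 0.31 for IFNL1, 0.106 for IFNK and 0.030 for IFNB1. The gap was narrowest in GFP cells, where IFNE had 0.613 ± 0.178 and IRF2 1.33 ± 0.15 CPM per kilobase.

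The other IRF family members described here were read in the same way, and none passed. IRF9, the DNA-binding part of the complex that acts below the type I and III receptors, had 3.45 and 2.01 CPM in CRNN, 1.09 and 0.798 in GFP, with 4.58 and 1.56 in untreated cells. Its log2 fold change was 1.51 (SE 0.60, adjusted p = 0.999) for CRNN over GFP (edgeR). As for IRF7, untreated replicate 1 was above its partner. IRF8, best known in myeloid cells, was between 0.223 and 1.2 CPM, and IRF4 did not pass the filter. The 3 IRF2 binding proteins, which are corepressors, had log2 fold changes of -0.33 (IRF2BP1), 0.17 (IRF2BP2) and -0.08 (IRF2BPL) for CRNN over GFP, none passing.

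Genes on either side of the IRFs in the pathway were counted by function. Of the interferon-induction genes, 15 of 16 were matched and tested. In CRNN, 10 were higher and 5 lower than in GFP, with 0 passing and a median log2 fold change of 0.19. For CRNN over untreated, 5 were higher and 10 lower (median -0.10), and for GFP over untreated 2 were higher and 13 lower (median -0.49). Without untreated replicate 1 these medians were 0.17 and -0.34, and without untreated replicate 2 they were -0.26 and -0.81. DHX58 and IFIH1, cytoplasmic RNA sensors that are themselves stimulated by interferon, had 8.2 and 7.98 CPM and 38.6 and 43.1 CPM in CRNN, against 2.39 and 4.47 CPM and 9.5 and 19.2 CPM in GFP. In untreated replicates 1 and 2, DHX58 had 9.4 and 6.37 CPM and IFIH1 had 49.1 and 19.1 CPM. TBK1, the kinase that phosphorylates IRF3, had 29.8 and 21.3 CPM in CRNN and 19.6 and 35.3 CPM in GFP, so the groups overlapped. Of the 6 receptor genes, 3 were higher and 3 lower in CRNN than in GFP with 0 passing (median 0.23), beside -0.0017 for all genes. Their median was 0.33 for CRNN over untreated (4 higher, 2 lower) and 0.15 for GFP over untreated (3 higher, 3 lower). Without untreated replicate 1 these medians were 0.25 and -0.01, and without untreated replicate 2 they were 0.59 and 0.40. The interferon gamma receptor chains IFNGR1 and IFNGR2 were at 0.62 (SE 0.33) and 0.53 (SE 0.34) on the log2 scale for CRNN over GFP, and IL10RB, a chain shared with the type III receptor, 0.50 (SE 0.30), all with an adjusted p of 0.999 (edgeR). IFNGR1 had 25.8 and 33.0 CPM in CRNN against 17.8 and 20.6 CPM in GFP, and IL10RB had 17.5 and 20.2 CPM in CRNN against 10.8 and 16 CPM in GFP. IFNAR2, a chain of the type I receptor, had 3.4 and 3.21 CPM in CRNN against 3.32 and 5.67 CPM in GFP. Of 11 JAK-STAT genes, 9 were higher and 2 lower in CRNN than in GFP with 0 passing (median 0.21). Among the higher ones, STAT2 had 222 and 216 CPM in CRNN, 109.5 and 122 in GFP, with 124 and 139 in untreated cells. The median of the 11 was 0.01 for CRNN over untreated (6 higher, 5 lower) and -0.20 for GFP over untreated (3 higher, 8 lower). Without untreated replicate 1 these medians were 0.36 and 0.09, and without untreated replicate 2 they were -0.03 and -0.47.

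Downstream, all 36 stimulated genes had positive values for CRNN over GFP, with a median of 1.69, beside 49.9% of all tested genes. Without GFP replicate 1 the median was 1.22, with 35 higher and 1 lower, and without GFP replicate 2 it was 2.53, with 36 higher. Of these 36, 2 passed (IFI6 and IFI27), among 3 of 16396 genes, and 0 passed without either GFP library. Over untreated cells 26 were higher and 10 lower, with a median of 0.46 and 0 passing, beside 49.1% of all genes higher. That was 35 higher and 1 lower (median 1.16) without untreated replicate 1, and 19 higher and 17 lower (median 0.049) without untreated replicate 2. For GFP over untreated, 0 of the 36 were higher and 36 lower (median -1.32, 0 passing), beside 48.9% of all genes higher. Without untreated replicate 1 this was 3 higher and 33 lower (median -0.51), and without untreated replicate 2 it was 0 and 36 (median -1.77). The 17 tested genes that interferon gamma and IRF1 are known to induce were also all higher in CRNN than in GFP, with a median of 0.78 and 0 passing. Without GFP replicate 1, 15 were higher and 2 lower (median 0.62), and without GFP replicate 2 all 17 were higher (median 1.16). Over untreated cells, by contrast, 5 were higher and 12 lower (median -0.09). That became 16 higher and 1 lower (median 0.56) without untreated replicate 1, and 4 higher and 13 lower (median -0.52) without untreated replicate 2. For GFP over untreated, 1 of the 17 was higher and 16 lower (median -0.81). The median was -0.33 without untreated replicate 1 and -1.30 without untreated replicate 2. Their mean centred level was 0.18 and 0.29 in CRNN, -1.12 and -0.35 in GFP, and 1.32 and -0.32 in untreated replicates 1 and 2. Untreated replicate 1 thus had the highest mean level of IRF1-associated genes and the lowest IRF1 transcript. Not every gene followed that mean. CIITA was lowest in untreated replicate 1, at 1.3 CPM against 7.16 and 6.95 CPM in CRNN. PSMB8, PSMB9 and APOL1 were highest in a CRNN library, while the other tested genes of this list were highest in untreated replicate 1. The median r of IRF1 with 14 genes of this list was -0.23, against 0.69 for IRF7. The 16 tested NF-kB targets stood at a centred level of 2.07 in untreated replicate 1, against a range of -0.83 to 0.11 over the other libraries. Their part in the IRF values of that library was not tested. These gene lists were drawn up with earlier results of the data known, so their counts describe the libraries and give no independent support.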

How the data were processed

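Gene counts from 6 stranded total RNA libraries (CRNN, GFP and untreated Cal27 cells, 2 each, all labelled batch 1) were used as the authors deposited them: whole counts per gene with no normalization. Per the submitters' processing notes, the tools were STAR 2.6 and HTSeq 0.6.1, with FastQC 0.11.7, bcl2fastq and edgeR also listed; the notes give hg19, GRCh37 and GRCh38, with no role for each; annotation and strand setting are not given in the sources used here. Names, GRCh38 coordinates and lengths came from GENCODE release 44 by identifier without version (51996 of 57820 named).

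Genes were filtered with filterByExpr (minimum count 10, total 15), leaving 16396, including 6 of the 9 members. All 6 libraries entered 1 edgeR 4.0.16 quasi-likelihood fit in R 4.3.3 with TMM factors; p-values are two-sided and adjusted by Benjamini and Hochberg over all tested genes (threshold 0.05), and SE is the size of the log2 fold change over the root of its F statistic. The fit was tested on simulated counts. Members and gene lists were chosen with earlier results of these data known. The rule for names took all members, up to 4 genes per list by smallest p in CRNN against GFP (not all are printed), genes overlapping a member (2 in the IRF2 span with no shared exon, and 1 over IRF1 that is not in the count table are not described), and, for members spanning at least 1 log2 unit, the 5 genes with highest Pearson r of log2 CPM (prior count 2); other names were chosen after values were seen. Alternatives were RLE, upper-quartile or no factors, other filters, DESeq2 1.42.0, limma-voom (limma 3.58.1), only the 2 groups, a replicate block, each library left out and, added later, the lists with each library left out and a correction of GC content and length (natural splines with 4 degrees of freedom; 97.2% of tested genes had values).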

Additional observations from a re-analysis of the deposited data

How the results depend on the processing

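No member passed under any alternative that kept all libraries, and among the fits that left out a library IRF2 passed for CRNN against untreated cells (1.31, adjusted p = 0.0477) and IRF7 for GFP against untreated cells (-1.43, adjusted p = 0.0257), both without untreated replicate 2. Where a group was left with 1 library, that library was assumed to vary like the others. The count of genes passing for CRNN against GFP, 3 by edgeR, was 34 with no filter, 21 by DESeq2, 13 with only the 2 groups fitted and 1 after the GC and length correction. For CRNN against untreated cells, 1 by edgeR, it was 152 with no filter and 7 by DESeq2, and for GFP against untreated cells, 0 by edgeR, it was 195 and 29. Leaving out a library gave 0 to 13, 1 to 825 and 0 to 823 genes for the 3 comparisons, and the 825 and 823 came without untreated replicate 2. The cause was not tested. CRNN itself did not pass against GFP when either GFP library was left out, at 8.60 (adjusted p = 0.0795) without GFP replicate 1 and 8.34 (adjusted p = 0.171) without GFP replicate 2.

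IRF3 turned sign for CRNN over GFP with upper-quartile factors (-0.026), library totals only (-0.024), the 1 CPM filter (-0.021) and only the 2 groups (-0.0053), and for GFP over untreated with no filter (-0.0043) and the GC and length correction (-0.026). With a library left out, CRNN over GFP ran from -0.27 to 0.34 for IRF3 and from -0.20 to 0.37 for IRF5. CRNN over untreated ran from -0.18 to 1.40 for IFNE, -0.065 to 0.19 for IRF3 and -0.024 to 1.5 for IRF7. GFP over untreated ran from -0.33 to 0.79 for IRF1, -0.16 to 0.67 for IRF2, -0.29 to 0.32 for IRF3, -0.18 to 0.38 for IRF5 and -1.43 to 0.090 for IRF7. With library totals in place of TMM factors, all 27 group means of the members moved by no more than their SD. With the replicate block, CRNN against GFP had 4 genes passing, CRNN against untreated 1 and GFP against untreated 0, and IRF7 was at 1.39 for CRNN over GFP (adjusted p = 0.605); over 11729 genes the replicate differences correlated at r = 0.255 for the CRNN with GFP pairs, -0.071 for CRNN with untreated and 0.193 for GFP with untreated, so the numbers were not taken to pair the libraries.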
